A study of Mus musculus with 12 samples.

Results

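The NRF2 antioxidant response was described here through 10 genes: Nfe2l2, which encodes the transcription factor NRF2, and 9 of its well-known target genes, Nqo1, Hmox1, Gclc, Gclm, Txnrd1, Srxn1, Gsr, Gsta4 and Prdx1. They were taken by symbol from 24341 distinct symbols in each of 12 RNA sequencing libraries of cultured mouse adipocytes, and each of the 10 stood at 1 locus. The libraries formed 6 groups of 2. Inguinal white fat of C57BL/6 mice gave primary preadipocytes, wild type (WT) or with the genotype ATF7KO, which were differentiated into beige adipocytes with rosiglitazone, an agonist of the nuclear receptor PPARγ, and into white adipocytes when it was left out. C3H10t1/2 cells, an established mouse mesenchymal line that can form adipocytes, were differentiated with rosiglitazone, either as a control or in an ATF7-Overexpressing form. ATF7 is a stress-responsive transcription factor of the ATF2 family. The kind of ATF7KO allele, the vector used for overexpression and any pooling of mice were not found in the labels, and the labels do not say that replicates were separate cultures or animals, so p-values here reflect the spread between the libraries at hand, part or all of which may be technical.

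NRF2 is held in the cytoplasm by KEAP1, which brings it to the CUL3 ubiquitin ligase for degradation. When electrophiles or peroxides modify KEAP1, or when p62 (Sqstm1) takes KEAP1 away, NRF2 enters the nucleus, pairs with a small MAF protein and binds antioxidant response elements, from which the heme-regulated repressor BACH1 is displaced. Its targets break down heme and quinones, make and recycle glutathione, and keep thioredoxin and peroxiredoxins reduced. NRF2 is set largely by protein stability, so the Nfe2l2 transcript is not a measure of its activity.

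All values are FPKM (fragments relative to transcript length and to the library's total), which can be compared between genes. Summed FPKM ran from 225536 to 272371 per library, from 9844 to 10877 entries reached 1 FPKM, and the Pearson's r between replicates, across genes, was 0.984 to 0.992. FPKM hold no read counts, and sequencing depth is therefore unknown. The worth of 1 read was estimated from the most common ratio of values under 0.15 FPKM to those of WT beige replicate 1. By this rough estimate it differed at most 1.47-fold between libraries. Adipocyte markers were high in every group (summed FPKM of 6 markers between 3105 and 12739.7), endothelial and erythroid markers were low (sums up to 4.37 and 1.28), and Ucp1, the uncoupling protein that defines beige fat, was listed at 0 in all 4 white libraries. Atf7 itself was not lower in the libraries labelled ATF7KO. It stood at 7.80 and 7.83 FPKM in WT beige and at 7.26 and 7.94 FPKM in ATF7KO beige (log2 fold change −0.036, SE 0.12, limma adjusted p = 0.949), and the white cultures gave −0.13 (adjusted p = 0.604). Whether part of the gene was deleted cannot be read from 1 value per gene, so these libraries are called KO-labelled and every direction for them rests on the label. In C3H10t1/2, Atf7 stood at 8.52 and 9.09 FPKM in the controls and at 41.2 and 39.1 FPKM with overexpression (2.07, SE 0.070, adjusted p = 0.000162).

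RefSeq promoter windows on GRCm38.p6, from 250 bases before to 50 bases after a transcription start, were matched for 6 of the 10 genes, Nfe2l2, Nqo1, Gclm, Txnrd1 (3 windows), Srxn1 and Prdx1. The core of the antioxidant response element, TGACNNNGC on either strand, occurred in 5 of these 8 windows and in 12.4% of 32851 windows of the same length over all genes. The related TGAGNNNGC occurred in 2 of 8 and in 17.6% of all windows, and the full consensus TGACTCAGC in 1 of 8, that of Prdx1, and in 0.454% of all windows. One stretch upstream of the start is shown for each of the 5 genes with a match, as all 5 were called in at least 1 of the beige against white comparisons. Each is written 5′ to 3′ on the strand of its gene, with the 9 matching bases in capitals. The capitals mark TGACNNNGC, except at Srxn1, where they mark TGAGNNNGC, since its TGACNNNGC match lies after the start. At Nfe2l2 (minus strand) and at Srxn1 (plus strand) the capitals read on the strand of the gene, and at Prdx1, Gclm and Txnrd1 (all plus strand) they read the motif on the opposite strand.
Nfe2l2, chr2:75704883-75704913: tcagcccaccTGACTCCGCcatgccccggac
Gclm, chr3:122245411-122245443: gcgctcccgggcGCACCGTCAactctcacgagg
Txnrd1, chr10:82859102-82859134: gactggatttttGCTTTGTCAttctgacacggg
Srxn1, chr2:152105467-152105499: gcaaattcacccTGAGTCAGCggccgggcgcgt
Prdx1, chr4:116685454-116685486: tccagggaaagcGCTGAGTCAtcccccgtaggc
Counted from the start site, the first base in capitals lay at −240 at Nfe2l2, −134 at Gclm, −92 at Txnrd1 (the second of its windows), −45 at Srxn1 and −133 at Prdx1. The letters TGAGTCA, which are also the site of the AP-1 factors, lie inside the capitals at Srxn1 and Prdx1. A match describes letters and not binding, which was not measured.

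Beige and white cultures were compared to see how the antioxidant genes stood when adipocytes were differentiated with rosiglitazone. In WT cultures, heme oxygenase, both subunits of the enzyme that starts glutathione synthesis, sulfiredoxin and Nfe2l2 itself were higher in beige, and the quinone reductase Nqo1 was lower. Of the 10 genes, 5 rose, 1 fell and 4 did not pass the test (limma on log2(FPKM + 1), adjusted p under 0.05), against 53.7% of 11294 tested genes called in either direction, 21.6% higher and 32.1% lower. In KO-labelled cultures 8 rose and none fell, against 61% of tested genes called, 26.6% higher and 34.3% lower. The groups did not overlap for 7 of the 10 genes in WT cultures (77.5% of all tested genes) and for 10 of 10 in KO-labelled cultures (80.8%). The 10 genes had a median log2 fold change of 0.39 (WT) and 0.55 (KO-labelled), beside −0.098 and −0.062 over all tested genes. Median centring moved the median of all genes to 0.011 in WT and 0.047 in KO-labelled cultures and the share of calls that were higher from 40.2% to 51.4% and from 43.7% to 52.8%. It kept the counts of 5 higher with 1 lower, and of 8 higher. Quantile normalization and leaving out small RNA genes each gave 5 higher with 1 lower in WT, and 6 higher in KO-labelled cultures. Without small RNA genes the median of all genes was −0.194 in WT and −0.172 in KO-labelled cultures. Of those calls, 32.0% and 35.4% were higher. Small RNA genes held 23.85% to 24.98% of FPKM in the beige primary libraries and 28.67% to 30.22% in the white. All log2 fold changes are of FPKM + 1, a scale on which changes of low genes such as Nqo1 come out too small.

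**Figure D1:**
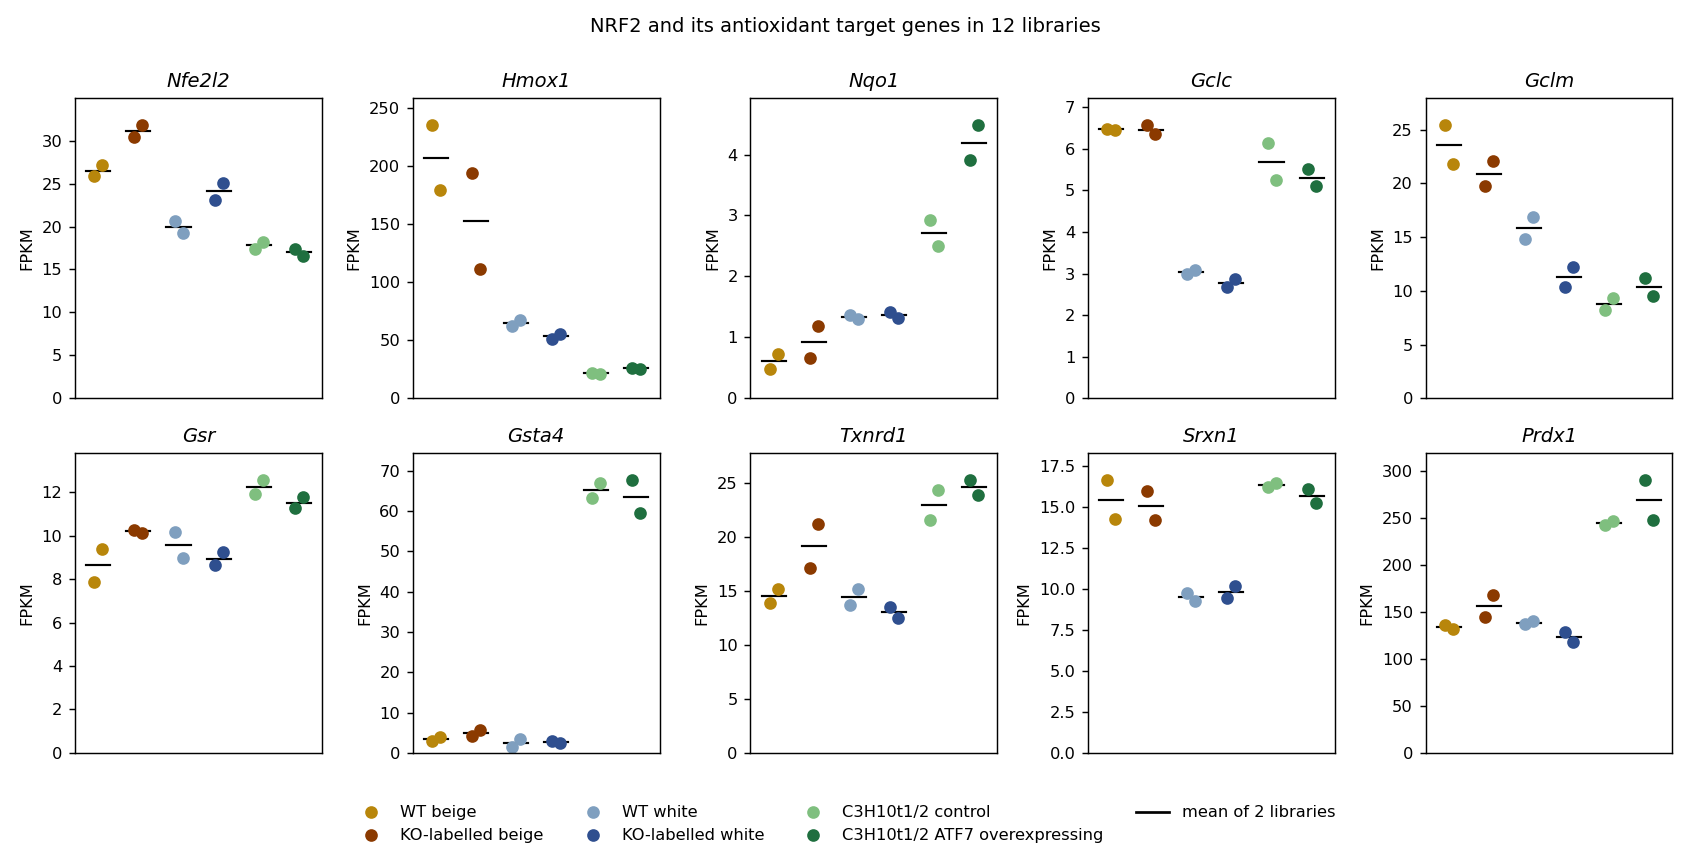
FPKM of each of the 10 genes (vertical axis of each panel, linear from 0) in the 12 libraries, 1 point per library, coloured by group, with a black line at the mean of the 2 libraries. Hmox1 stands highest in beige primary cultures (112 to 235 FPKM), Nqo1 and Gsta4 in C3H10t1/2, and Gclc lies between 2.68 and 3.09 FPKM in the 4 white libraries and above 5 FPKM in the other 8.

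Nfe2l2 (chromosome 2, 75675519 to 75704641, minus strand, mm10) stood at 25.8 and 27.2 FPKM in WT beige and at 20.7 and 19.3 FPKM in WT white. KO-labelled cultures held 30.5 and 31.8 FPKM in the beige libraries and 23.1 and 25.1 FPKM in the white. In both genotypes each beige library was above each white one. The rise was 1.33-fold in WT (log2 0.39, SE 0.094, limma adjusted p = 0.00715) and 1.29-fold in KO-labelled cultures (0.36, SE 0.094, adjusted p = 0.00985). It did not pass in WT without WT beige replicate 2 (0.36, adjusted p = 0.0622), nor in KO-labelled cultures without KO-labelled white replicate 1 (0.30, adjusted p = 0.0853) or after quantile normalization (0.19, adjusted p = 0.0919). Over the 6 groups, the order of mean FPKM was KO-labelled beige (31.1 ± 0.91, SD, n = 2), WT beige (26.5 ± 0.94), KO-labelled white (24.1 ± 1.4), WT white (19.96 ± 1.0), C3H10t1/2 control (17.8 ± 0.55) and ATF7 overexpression (17.0 ± 0.54), each SD over 2 libraries. No 2 neighbours in that order overlapped. Prdx1 likewise had no overlap between neighbours in its own order. The share of all genes without such overlap over the 6 groups was not computed. In the tested pairs of groups, 41.2% to 81.8% of all tested genes did not overlap. For Nfe2l2, the steps between genotypes in beige and in white and between control and overexpression were tested and did not pass. The other 2 steps were not tested. Nfe2l2 is overlapped by an annotated small nuclear RNA gene on its own strand, so part of its value may belong to that gene.

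The list of NRF2 regulators held genes that restrain NRF2, genes that help it and its relatives Nfe2l1 and Nfe2l3. Counts over this list therefore give no direction for NRF2. Of its 13 tested genes, 7 rose and 3 fell in WT cultures, where 21.6% of all tested genes rose and 32.1% fell. In KO-labelled cultures 6 rose and 1 fell, where 26.6% of all tested genes rose and 34.3% fell. Bach1, the repressor that competes for the same DNA elements, stood at 4.04 and 3.78 FPKM in WT beige, 7.17 and 7.69 in WT white, 4.07 and 4.41 in KO-labelled beige and 8.52 and 8.97 in KO-labelled white. All 4 beige values were below all 4 white values (log2 −0.78, SE 0.093, limma adjusted p = 0.000137 in WT, and −0.90, SE 0.093, adjusted p = 4.46e-05 in KO-labelled cultures). Sqstm1, whose product p62 sequesters KEAP1, went the other way, at 147 and 139.8 FPKM in WT beige against 66.2 and 69.6 FPKM in WT white (1.07, SE 0.11, adjusted p = 6.26e-05). The KO-labelled values were 145 and 171 FPKM in the beige libraries and 70.2 and 72.1 FPKM in the white (1.13, SE 0.11, adjusted p = 3.08e-05). Maff, a small MAF partner, rose in both genotypes as well (1.78, SE 0.22, adjusted p = 0.000171 in WT, and 1.14, SE 0.22, adjusted p = 0.00188 in KO-labelled cultures). Keap1 stood at 9.94 and 10.2 FPKM in WT beige and 7.56 and 8.69 FPKM in WT white (0.28, SE 0.10, adjusted p = 0.0427). That call was lost when WT beige replicate 1, WT beige replicate 2, WT white replicate 1, KO-labelled white replicate 1 or KO-labelled white replicate 2 was left out (adjusted p between 0.0592 and 0.199), and also with small RNA genes left out (0.20, adjusted p = 0.157) and with only the 2 groups in the fit (adjusted p = 0.0589). In KO-labelled cultures Keap1 did not pass (0.24, adjusted p = 0.0670), but did after median centring (0.35, adjusted p = 0.0126) and with all 12 libraries in 1 fit (adjusted p = 0.0411).

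Hmox1 (chromosome 8, 75093618 to 75100593, plus strand) encodes heme oxygenase-1, which breaks heme into biliverdin, carbon monoxide and iron and is repressed by BACH1. Its values were 235 and 179.9 FPKM in WT beige and 61.9 and 67.2 FPKM in WT white. In KO-labelled cultures they were 194 and 112 FPKM in the beige libraries and 51.3 and 55.3 FPKM in the white. Each beige library was at least as high as 112 FPKM and each white library at most 67.2 FPKM, and the beige replicates differed more than the white ones. The rise was 3.21-fold in WT (log2 1.66, SE 0.23, limma adjusted p = 0.000384) and 2.87-fold in KO-labelled cultures (1.45, SE 0.23, adjusted p = 0.000654), and it passed under every alternative tried.

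Nqo1 (chromosome 8, 107388225 to 107403205, minus strand) encodes a quinone reductase and is among the most used markers of NRF2 activity. It was the lowest of the 10 genes in every primary culture, at 0.482 and 0.735 FPKM in WT beige against 1.37 and 1.30 FPKM in WT white. KO-labelled cultures had 0.668 and 1.19 FPKM in the beige libraries and 1.42 and 1.32 FPKM in the white. The beige libraries were thus below the white ones in both genotypes, opposite to Hmox1. Both WT beige values were under the 1 FPKM of the filter for testing, which Nqo1 passed through other libraries. In WT cultures Nqo1 fell by 0.54 on the log2 scale (SE 0.15, limma adjusted p = 0.0135), but the call was lost after quantile normalization (−0.22, adjusted p = 0.212), without WT beige replicate 1 (−0.43, adjusted p = 0.0979) and without WT white replicate 1 (−0.52, adjusted p = 0.0514). In KO-labelled cultures the difference was −0.31 (adjusted p = 0.101), passed only without KO-labelled beige replicate 2 (−0.51, adjusted p = 0.0199) among the alternatives, and was 0.087 after quantile normalization.

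Gclc (chromosome 9, 77754535 to 77794489, plus strand) and Gclm (chromosome 3, 122245557 to 122267215, plus strand) encode the catalytic and the modifier subunit of glutamate-cysteine ligase, the rate-limiting enzyme of glutathione synthesis. Gclc stood at 6.48 and 6.45 FPKM in WT beige and 2.99 and 3.09 FPKM in WT white, and at 6.56 and 6.34 FPKM in KO-labelled beige and 2.68 and 2.87 FPKM in KO-labelled white. The 4 beige values were nearly the same, and the gap to the white values was far larger than the spread between replicates. Gclc rose 2.13-fold in WT (log2 0.89, SE 0.087, limma adjusted p = 4.63e-05) and 2.33-fold in KO-labelled cultures (0.98, SE 0.087, adjusted p = 1.79e-05).

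Gclm stood at 25.4 and 21.8 FPKM in WT beige against 14.8 and 16.9 FPKM in WT white, and at 19.8 and 22.0 FPKM in KO-labelled beige against 10.3 and 12.2 FPKM in KO-labelled white. The groups did not overlap in either genotype. The rise was 0.54 in WT (SE 0.12, limma adjusted p = 0.00571), which did not pass without WT beige replicate 1 (0.44, adjusted p = 0.0540), and 0.84 in KO-labelled cultures (SE 0.12, adjusted p = 0.000394). The modifier subunit was the more abundant transcript in all 12 libraries, with a ratio of Gclm to Gclc FPKM of 3.92 and 3.38 in WT beige, 4.95 and 5.48 in WT white, 3.02 and 3.48 in KO-labelled beige and 3.86 and 4.25 in KO-labelled white. The 4 C3H10t1/2 libraries had the lowest ratios, from 1.33 to 2.04. Slc7a11, the cystine importer that feeds this step, rose with the 2 subunits, from 0.723 and 0.687 to 1.31 and 1.87 FPKM in WT (0.59, SE 0.13, adjusted p = 0.00444) and from 0.543 and 0.420 to 1.53 and 1.74 FPKM in KO-labelled cultures (0.83, adjusted p = 0.000535). Slc7a11 was under 1 FPKM in every white library and passed the filter for testing only through the beige ones, where it was high. Its entry into the test was therefore not independent of its direction, though both calls held with no filter. Gclm is overlapped by a noncoding gene on the opposite strand and a pseudogene on its own, so part of its value may belong to them.

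Gsr (chromosome 8, 33653238 to 33698162, plus strand), glutathione reductase, which regenerates glutathione from its disulfide, was the flattest of the 10 genes over the 6 groups, with a 1.42-fold range of group means. It stood at 7.89 and 9.40 FPKM in WT beige, 10.2 and 8.98 in WT white, 10.3 and 10.1 in KO-labelled beige and 8.64 and 9.25 in KO-labelled white. The WT groups overlapped (log2 −0.14, 95% interval −0.39 to 0.11), and the KO-labelled groups did not, though the test did not pass (0.17, 95% interval −0.077 to 0.42, limma adjusted p = 0.201). An annotated small nucleolar RNA gene overlaps the Gsr locus on the same strand, so part of the Gsr value may belong to that gene.

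Gsta4 (chromosome 9, 78191966 to 78209349, plus strand) encodes a glutathione S-transferase that removes the lipid aldehyde 4-hydroxynonenal. Primary cultures held little of it, at 2.89 and 3.83 FPKM in WT beige, 1.48 and 3.44 in WT white, 4.15 and 5.73 in KO-labelled beige and 2.81 and 2.48 in KO-labelled white. The WT white replicates lay far apart, and the WT groups overlapped (0.38, SE 0.25, limma adjusted p = 0.231). Without WT white replicate 2 the WT difference was 0.80 (adjusted p = 0.0120) and without WT white replicate 1 it was −0.035, so 1 library decided both its size and its sign. In KO-labelled cultures Gsta4 rose by 0.69 (SE 0.25, adjusted p = 0.0406), which was lost without KO-labelled beige replicate 2 (0.50, adjusted p = 0.217), KO-labelled white replicate 1 (0.76, adjusted p = 0.0870) or KO-labelled white replicate 2 (0.63, adjusted p = 0.147), with a pseudocount of 0.1 (adjusted p = 0.0589), with no filter (adjusted p = 0.0959) and with small RNA genes left out (adjusted p = 0.0637). Gsta4 has close relatives among the alpha-class transferases, so the division of reads between them is uncertain.

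The thioredoxin branch split in WT cultures. Srxn1 (chromosome 2, 152105524 to 152111376, plus strand), sulfiredoxin, which restores overoxidized peroxiredoxins, stood at 16.6 and 14.2 FPKM in WT beige and 9.72 and 9.28 FPKM in WT white, and at 16.0 and 14.2 FPKM in KO-labelled beige and 9.43 and 10.2 FPKM in KO-labelled white. Both genotypes showed a clear gap between beige and white. The rise was 0.64 in WT (SE 0.11, limma adjusted p = 0.00106) and 0.57 in KO-labelled cultures (SE 0.11, adjusted p = 0.00165) and passed under every alternative.

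Txnrd1 (chromosome 10, 82833951 to 82897724, plus strand) encodes cytosolic thioredoxin reductase. Its values were 13.9 and 15.2 FPKM in WT beige and 13.7 and 15.2 FPKM in WT white, which overlapped (log2 0.0095, 95% interval −0.26 to 0.28), and the sign turned without small RNA genes (−0.085), without WT beige replicate 2 (−0.054) and without WT white replicate 1 (−0.058). KO-labelled beige held 17.2 and 21.2 FPKM and KO-labelled white 13.5 and 12.5 FPKM. In these cultures Txnrd1 rose by 0.52 (SE 0.12, limma adjusted p = 0.00497), under every alternative. Annotated genes overlap Txnrd1 on both strands, Eid3 among them, so its value may hold some of their reads.

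Prdx1 (chromosome 4, 116685599 to 116700000, plus strand) encodes peroxiredoxin 1, the abundant cytosolic peroxidase that thioredoxin reduces. WT cultures stood at 136 and 132 FPKM in the beige libraries and 137 and 140.0 FPKM in the white, a difference of −0.050 (95% interval −0.30 to 0.20) that became 0.058 after median centring and −0.47 after quantile normalization (limma adjusted p = 0.00158). KO-labelled cultures stood at 144 and 168 FPKM in the beige libraries and 129 and 118 FPKM in the white. Prdx1 rose by 0.33 there (SE 0.11, adjusted p = 0.0286), a call that was lost after quantile normalization, which turned the sign (−0.10), with small RNA genes left out (0.23, adjusted p = 0.122), with only the 2 groups in the fit (adjusted p = 0.0611), and without WT beige replicate 1 or 2, KO-labelled beige replicate 2, or KO-labelled white replicate 1 or 2 (adjusted p between 0.0575 and 0.175). Txn1, the thioredoxin between Txnrd1 and Prdx1, did not pass in WT (0.18, adjusted p = 0.267), where it was −0.12 after quantile normalization and passed without WT white replicate 2 (0.35, adjusted p = 0.0376). It rose in KO-labelled cultures (0.39, SE 0.13, adjusted p = 0.0272), except after quantile normalization (0.023, adjusted p = 0.873), with small RNA genes left out (0.28, adjusted p = 0.0908), and without KO-labelled beige replicate 1 (adjusted p = 0.0607) or 2 (0.0851) or KO-labelled white replicate 2 (0.166).

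**Figure D2:**
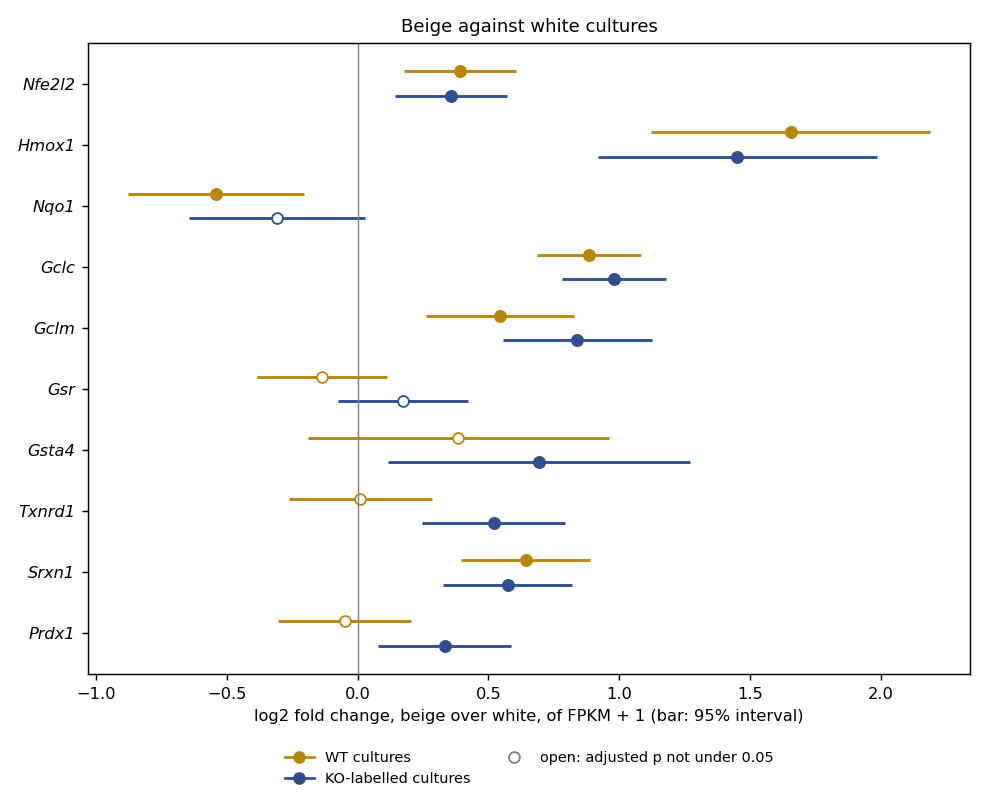
Log2 fold change of FPKM + 1, beige over white, for the 10 genes in WT (gold) and KO-labelled cultures (blue), with 95% intervals from the limma fit. Filled points passed the test and open points did not. Hmox1, Gclc, Gclm, Srxn1 and Nfe2l2 lie to the right of 0 in both genotypes, Nqo1 lies to the left, and Txnrd1 and Prdx1 are near 0 in WT only.

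Markers of other cells moved with this comparison. The summed FPKM of 15 macrophage markers lay between 34.4 and 44.8 in the 4 beige primary libraries, between 554 and 614 in WT white and between 806 and 856 in KO-labelled white, and all 15 were called lower in beige in both genotypes. The sum of 8 preadipocyte markers was 126 to 145 in beige and 491 to 702 in white, and that of 6 adipocyte markers 10489.5 to 11757 in beige and 3105 to 4632 in white. Most of the adipocyte sum was Fabp4 alone, which ran from 8602 to 9585 in beige libraries and from 1940 to 3055 in white ones. The limma test called 4 of these 6 markers higher in WT beige and left 2 uncalled, while all 6 were called higher in KO-labelled beige. Of all tested genes, 21.6% were called higher and 32.1% lower in WT beige, and 26.6% and 34.3% in KO-labelled beige. In C3H10t1/2 the macrophage sum was at most 2.35 FPKM, with Tyrobp, Ctss, C1qa, C1qb, Cd163 and Itgam at 0 in both controls. In bulk libraries, fewer cells of a type and less RNA per cell cannot be told apart. The part of this difference in cell markers in the values of the 10 genes was not tested.

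The KO-labelled and WT cultures were compared to see whether the label ATF7KO went with a change of these genes. None of the 10 genes passed the test in beige (limma adjusted p under 0.05), where 0.151% of tested genes did, 0.0531% higher and 0.0974% lower. At an unadjusted p under 0.05 there were 2, Txnrd1 and Nfe2l2. The share of all tested genes at that unadjusted threshold was not computed. The adjusted shares therefore cannot be set beside such counts, here or below. Txnrd1 was 17.2 and 21.2 FPKM in KO-labelled beige against 13.9 and 15.2 FPKM in WT beige, without overlap (log2 0.37, SE 0.12, adjusted p = 0.366). Nfe2l2 was 1.17-fold higher in KO-labelled beige, also without overlap (0.22, SE 0.094, adjusted p = 0.468). Gsr, Gsta4 and Prdx1 were likewise higher in both KO-labelled beige libraries than in both WT ones, which made 5 of 10 genes without overlap, beside 41.2% of all genes. The 10 genes had a median of 0.22, beside 0.041 over all genes. Hmox1 was −0.48 with a wide interval (95% interval −1.01 to 0.057), and Gclc had the narrowest interval of the 10 (−0.0022, 95% interval −0.20 to 0.20).

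None of the 10 genes passed in white cultures either, where 1.89% of tested genes did, 1.27% higher and 0.62% lower. Gclm and Nfe2l2 had an unadjusted p under 0.05 (limma), for which no share of all genes was computed. Gclm was 10.3 and 12.2 FPKM in KO-labelled white and 14.8 and 16.9 FPKM in WT white, without overlap (log2 −0.46, SE 0.12, adjusted p = 0.102), and it passed after quantile normalization (−0.49, adjusted p = 0.0472). Nfe2l2 was 1.21-fold higher in KO-labelled white (0.26, SE 0.094, adjusted p = 0.177). For Nfe2l2, every KO-labelled library was above every WT library of its culture type, although neither difference passed. The share of all tested genes that did so in both culture types was not computed, so nothing particular to Nfe2l2 is read from it. Of the other genes, Hmox1, Gclc, Txnrd1 and Prdx1 were lower in both KO-labelled libraries than in both WT ones, which brought the genes without overlap to 6 of 10, beside 53.4% of all genes. The median of the 10 was −0.094, beside 0.029 over all genes. The share of all calls that were higher in KO-labelled white was 67.1%, with 50.4% under quantile normalization, 52.8% when medians were centred and 53.7% at a pseudocount of 0.1. It was 32.0% of 25 calls without KO-labelled white replicate 1 and 30.4% of 23 calls without KO-labelled white replicate 2, so the majority turned with either library.

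Macrophage and adipocyte markers differed between genotypes in white cultures. The macrophage sum was 806 to 856 FPKM in KO-labelled white and 554 to 614 FPKM in WT white, and 5 of 15 macrophage markers were called higher. Over all tested genes, 1.27% were called higher and 0.62% lower. The markers did not all move alike. Mean Marco was 1.27 FPKM in WT white and 0.589 FPKM in KO-labelled white, and mean Cd163 was 3.78 and 3.82 FPKM. The adipocyte sum was 3105 to 3137 FPKM against 4007 to 4632 FPKM, and 1 of 6 markers was called lower. Their part in the Gclm and Nfe2l2 differences was not tested.

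Whether beige and white differed more in one genotype than in the other was tested as the interaction of genotype and rosiglitazone. None of the 10 genes passed (limma, 0.292% of tested genes called, 0.106% higher and 0.186% lower). An unadjusted p under 0.05 was found for 2, with no share of all genes computed at that threshold. For Txnrd1 the beige-white difference was 0.51 larger in KO-labelled cultures (SE 0.17, 95% interval 0.12 to 0.90, adjusted p = 0.213). For Prdx1 it was 0.38 larger (SE 0.16, adjusted p = 0.272). The calls of Txnrd1, Prdx1 and Gsta4 in KO-labelled but not in WT cultures are therefore not shown to be differences between genotypes. The smallest interaction was that of Nfe2l2 (−0.037, 95% interval −0.34 to 0.27). The interaction and the 4 comparisons it combines use the same 8 libraries, so their values for a gene are not independent.

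Overexpression of ATF7 in C3H10t1/2 beige adipocytes asked the opposite question, whether more Atf7 transcript went with a change of the 10 genes. None passed the test (limma, 1.49% of 9981 tested genes called, 0.431% higher and 1.06% lower). Nqo1 and Hmox1 had an unadjusted p under 0.05, for which no share of all genes was computed. Nqo1 stood at 3.92 and 4.48 FPKM with overexpression and at 2.93 and 2.51 FPKM in the controls, without overlap, a 1.54-fold difference (log2 0.48, SE 0.10, adjusted p = 0.0883). It passed when small RNA genes were left out (0.57, adjusted p = 0.0365). Hmox1 stood at 26.2 and 25.6 FPKM against 21.7 and 21.4 FPKM, with tight replicates and no overlap (0.25, SE 0.062, adjusted p = 0.121). Gclm was 11.2 and 9.56 FPKM against 8.18 and 9.37 FPKM (0.22, adjusted p = 0.344).

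The remaining genes differed little under overexpression. Nfe2l2 was 17.4 and 16.6 FPKM against 17.4 and 18.2 FPKM in the controls (log2 −0.064, 95% interval −0.23 to 0.098). Txnrd1, Srxn1, Gsr, Gsta4, Gclc and Prdx1 had values between −0.085 and 0.13, and Srxn1, Gsta4 and Nfe2l2 changed sign with small RNA genes left out. The median of the 10 was 0.030, beside −0.020 over all genes. In all, 7 of 10 genes did not overlap between the groups, beside 49.1% of all genes. The share of all calls that were higher with overexpression was 28.9%, 18.2% with no filter and 45.8% with small RNA genes left out. It was 11.8% of 17 calls without overexpression replicate 1, 17.2% of 29 calls without overexpression replicate 2 and 37.6% of 101 calls without control replicate 1. Of 6 beige markers, 5 were called lower with overexpression, where 1.06% of all tested genes were. The sum of the 6 was 589.8 to 747 FPKM against 1013 to 1068 FPKM in the controls. What part this has in the Nqo1 and Hmox1 values was not tested.

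**Figure D3:**
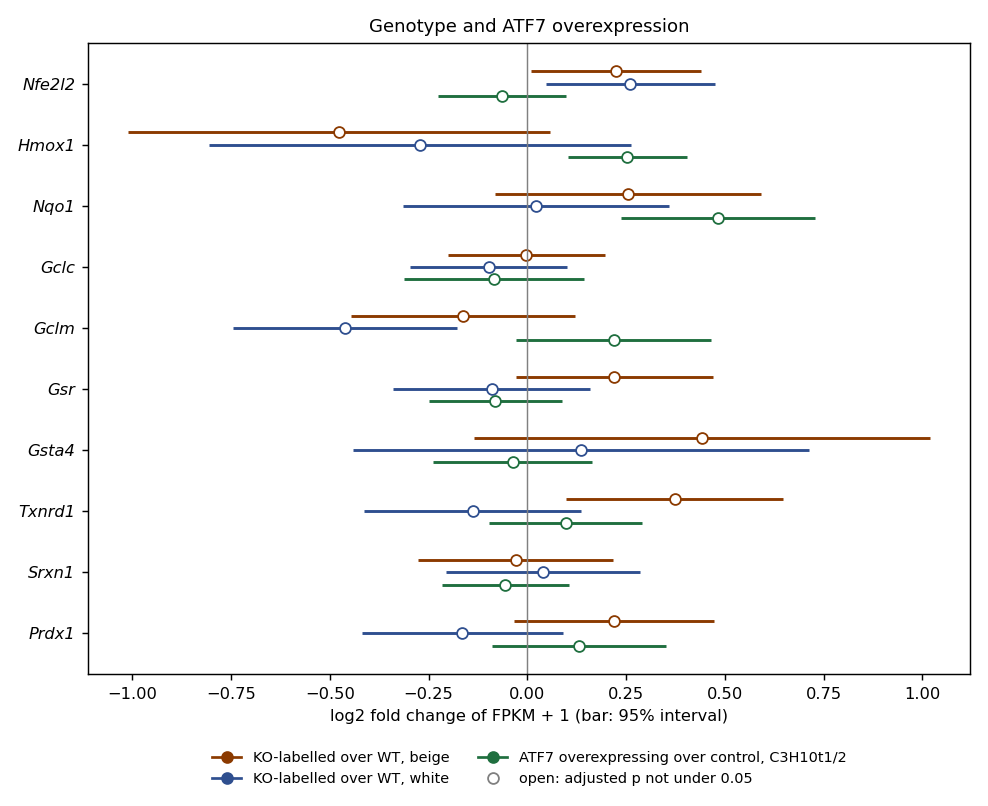
Log2 fold change of FPKM + 1 for the 10 genes, KO-labelled over WT in beige (brown) and white (blue) cultures and ATF7 overexpression over control in C3H10t1/2 (green), with 95% intervals from the limma fits. All 30 points are open because none passed the test. The intervals that leave out 0 are those of Nfe2l2 and Txnrd1 in beige, Nfe2l2 and Gclm in white, and Nqo1 and Hmox1 under overexpression.

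The largest differences among the 10 genes lay between the 2 sources of beige adipocytes. C3H10t1/2 controls had far more Gsta4 and more Nqo1, Prdx1, Txnrd1 and Gsr than WT primary beige cultures, and far less Hmox1 and less Gclm and Nfe2l2. In a fit of all 12 libraries, 5 genes were higher and 3 lower in C3H10t1/2 (limma), against 56.4% of 11601 tested genes called, 31.1% higher and 25.3% lower. All 8 calls held under every alternative tried, and the median of the 10 was 0.27, beside 0.061 over all genes. Source, strain and any batch cannot be told apart here, and the WT beige and control libraries are the same as in the comparisons above.

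Gsta4 stood at 63.1 and 67.0 FPKM in the C3H10t1/2 controls and at 2.89 and 3.83 FPKM in WT beige, a 19.4-fold difference (log2 3.93, SE 0.23, limma adjusted p = 3.52e-07). Hmox1 stood at 21.7 and 21.4 FPKM against 235 and 179.9 FPKM, which was 9.63-fold higher in the primary cultures (−3.20, SE 0.21, adjusted p = 7.27e-07). In each case the ranges were far apart. Nqo1 was 4.47-fold higher in C3H10t1/2, at 2.93 and 2.51 FPKM (1.21, SE 0.14, adjusted p = 3.57e-05), and Prdx1 1.83-fold higher, at 242 and 247 FPKM (0.87, SE 0.10, adjusted p = 5.45e-05). Gclm, at 8.18 and 9.37 FPKM, was 2.69-fold lower than in WT beige (−1.33, SE 0.12, adjusted p = 8.19e-06), while its partner Gclc, at 6.15 and 5.24 FPKM, did not pass (−0.16, 95% interval −0.35 to 0.031). The 2 subunits of glutamate-cysteine ligase thus differed in unequal measure. Txnrd1, at 21.6 and 24.4 FPKM, was 1.58-fold higher in C3H10t1/2 (0.62, SE 0.11, adjusted p = 0.000766), and Gsr, at 11.9 and 12.6 FPKM, 1.42-fold higher (0.46, SE 0.094, adjusted p = 0.00191). Srxn1 overlapped between the sources (0.080, 95% interval −0.12 to 0.28), and Nfe2l2 was 1.49-fold higher in WT beige (−0.55, SE 0.076, adjusted p = 0.000152).

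**Figure D4:**
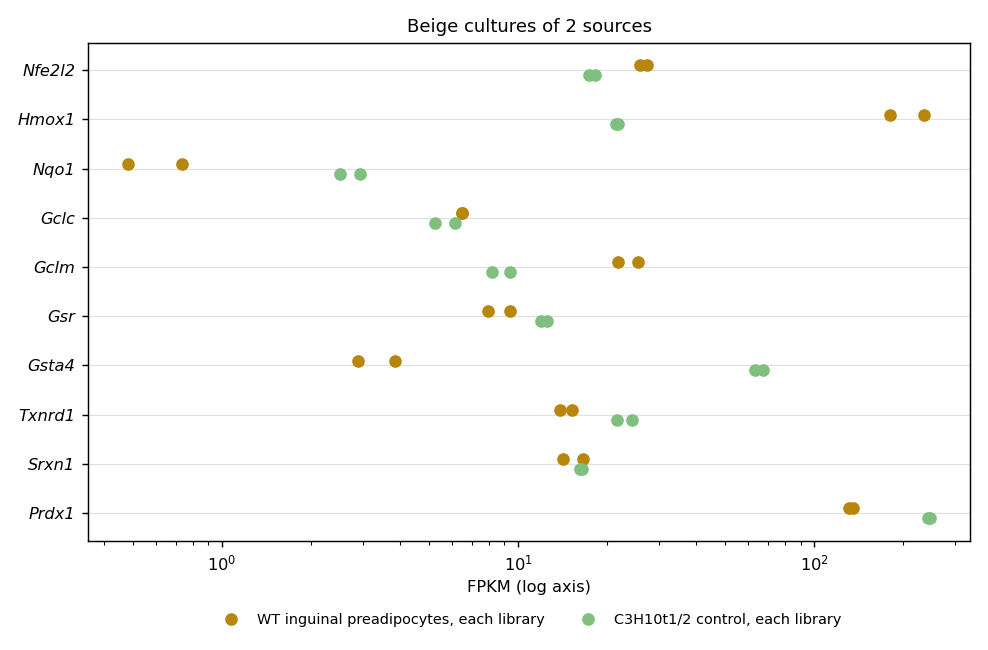
FPKM (horizontal log axis) of the 10 genes in each library of the WT primary beige cultures (gold) and the C3H10t1/2 controls (green). Gsta4 and Nqo1 lie far to the right in C3H10t1/2, Hmox1 and Gclm far to the right in the primary cultures, and the Srxn1 libraries overlap.

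The 10 genes did not keep 1 common pattern. Over the 12 libraries, Pearson's r of log2(FPKM + 1) was 0.95 between Hmox1 and Gclm and 0.97 between Gsta4 and Prdx1, but −0.92 between Nqo1 and Hmox1. Over the 8 primary libraries alone it was 0.97 between Gclc and Srxn1, 0.96 between Hmox1 and Srxn1, 0.94 between Txnrd1 and Prdx1, and −0.96 between Nqo1 and Hmox1. Nfe2l2 itself correlated with Srxn1 (0.80) and Gclc (0.79) over those 8 libraries and with Nqo1 at −0.51. Over all 12 libraries these values were −0.034, 0.22 and −0.84. Some of the other pairs also depended on the set of libraries. Gsta4 with Prdx1 was 0.65 over the 8 libraries, and Hmox1 with Srxn1 was −0.011 over the 12. Hmox1 with Gclm stayed high over the 8 (0.89), as did Gclc with Srxn1 (0.93) and Txnrd1 with Prdx1 (0.95) over the 12. These values describe libraries that share groups, culture type and library scaling. The 5 genes most like Nfe2l2 over the 12 libraries, among 11066 compared, were Lrrfip1 (r = 0.99), Oas3 (0.98), Dtx3l (0.98), Dlg2 (0.98) and Slfn9 (0.98), and none of the other 9 genes was among them. Oas3 and Slfn9 are known as interferon-inducible genes.

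Beyond the 10 genes, 99 other genes of the pathway were listed by role, of which 95 could be tested in primary cultures. In WT cultures 36 were higher in beige, 31 lower and 28 not called, and in KO-labelled cultures 37 were higher, 32 lower and 26 not called. Over all tested genes, 53.7% were called in WT (21.6% higher, 32.1% lower) and 61% in KO-labelled cultures (26.6% higher, 34.3% lower). The median of the 95 genes was 0.010 (WT) and 0.057 (KO-labelled), beside −0.098 and −0.062 over all genes. The counts by role in WT were 9 higher and 12 lower of 27 for glutathione, 7 and 3 of 13 for thioredoxins and peroxiredoxins, 5 and 5 of 12 for peroxide and superoxide enzymes, 3 and 3 of 10 for NADPH supply, and 5 and 5 of 20 for heme, iron and quinone genes. The higher calls in both genotypes include Txnrd2, which was listed at exactly 0 in every white library.

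**Figure D5:**
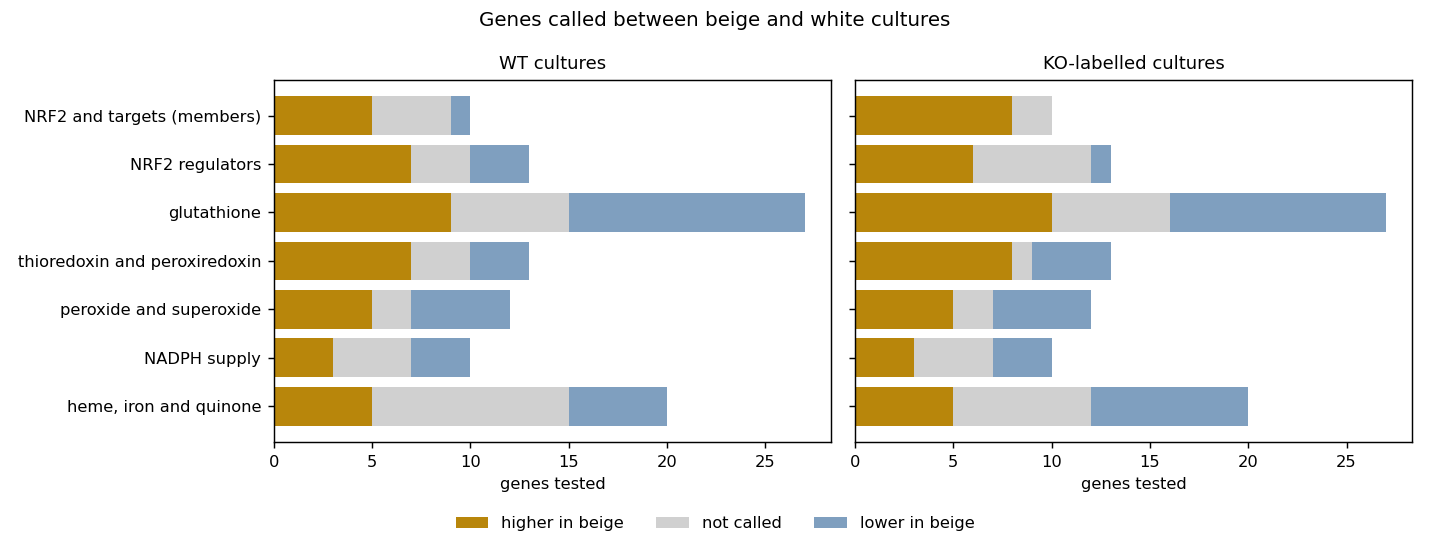
Number of tested genes (horizontal axis) of each list that were called higher in beige (gold), called lower (blue) or not called (grey) in WT cultures (left) and KO-labelled cultures (right). Glutathione genes are divided in both genotypes, with 9 higher and 12 lower in WT and 10 higher and 11 lower in KO-labelled cultures.

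Each list held genes that differed in opposite directions. Sod2, the mitochondrial superoxide dismutase, was 71.5 and 77.9 FPKM in WT beige against 23.6 and 25.9 FPKM in WT white (log2 1.56, SE 0.11, limma adjusted p = 9.07e-06). Idh2, which makes mitochondrial NADPH, rose by 1.004 (SE 0.11, adjusted p = 9.48e-05), but Nnt, the NADPH-making transhydrogenase of the inner membrane, was 0.886 and 0.546 FPKM against 4.07 and 4.52 FPKM (−1.63, SE 0.12, adjusted p = 8.22e-06). Of the glutathione genes, Mgst3, a membrane-bound glutathione transferase, rose by 1.89 (SE 0.15, adjusted p = 1.39e-05) and Oplah, which recycles 5-oxoproline, by 1.86 (SE 0.14, adjusted p = 8.64e-06), while Gsta3 fell by 1.78 (SE 0.10, adjusted p = 2.87e-06). Abcc4, an efflux pump, and Pgls of the pentose phosphate pathway were also higher in beige (0.90 and 0.72, adjusted p = 0.00125 and 0.000209). Nnt and Gsta3 were under 1 FPKM in every beige primary library and passed the filter for testing only through the white ones. Their entry into the test was therefore not independent of their direction, though both calls held with no filter.

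The secreted glutathione peroxidase Gpx3 was 60.0 and 58.7 FPKM in WT beige and 176 and 180.2 FPKM in WT white (log2 −1.57, SE 0.098, limma adjusted p = 4.07e-06). Gpx8, the peroxidase of the endoplasmic reticulum, fell by 1.53 (SE 0.096, adjusted p = 4.10e-06), Sesn1, a sestrin, by 1.58 (SE 0.16, adjusted p = 4.85e-05) and Nqo2, a relative of Nqo1, by 0.86 (SE 0.11, adjusted p = 0.000256). Slc40a1, the iron exporter ferroportin, which macrophages express strongly, fell by 1.87 (SE 0.11, adjusted p = 3.57e-06), with white libraries at 7.53 and 7.50 FPKM and beige ones at 1.57 and 1.12 FPKM. The white libraries high in Slc40a1 were also those high in macrophage markers, and the part of those markers in it was not tested.

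Few of the 95 genes were called by genotype. In beige none was (limma, 0.151% of all tested genes called). An unadjusted p under 0.05 was found for 13, again with no share of all genes computed to set beside them. In white 4 were higher in KO-labelled cultures and 1 was lower, where 1.27% of all tested genes were higher and 0.62% lower. Txnip, the inhibitor of thioredoxin, was 109 and 115 FPKM in KO-labelled white against 39.5 and 41.2 FPKM in WT white (log2 1.45, SE 0.096, adjusted p = 0.000341), with a wide gap between the groups. Slc40a1 rose to 15.3 and 14.2 FPKM, against 7.53 and 7.50 FPKM in WT (0.89, SE 0.11, adjusted p = 0.0109). Tkt of the pentose phosphate pathway (0.56, adjusted p = 0.0418) and Gpx3 (0.49, adjusted p = 0.0450) were higher, and Gsta3 fell to 2.42 and 2.43 FPKM, against 5.66 and 5.43 FPKM in WT (−0.93, SE 0.10, adjusted p = 0.00629). Tkt was named after its values were seen. Of these 5, only Txnip passed without any 1 of the 8 libraries. Of 16 alternatives, the Gpx3 call was lost in 11, Tkt in 9, Slc40a1 in 4 and Gsta3 in 2. Gpx3 and Tkt were each lost in 6 of the 8 fits that left out a library, and also with a pseudocount of 0.1, with no filter and with only the 2 groups in the fit. The highest adjusted p were 0.322 for Tkt, 0.321 for Gpx3, 0.0918 for Slc40a1 and 0.0697 for Gsta3, each without KO-labelled white replicate 2.

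Under ATF7 overexpression 3 of 81 tested pathway genes were lower and none higher, where 1.06% of all tested genes were lower and 0.431% higher. Oplah stood at 6.40 and 6.16 FPKM in the controls and 2.15 and 2.69 FPKM with overexpression (log2 −1.09, SE 0.10, limma adjusted p = 0.0105), Prdx5, a peroxiredoxin of mitochondria and peroxisomes, at 92.9 and 100.1 FPKM against 60.7 and 68.3 FPKM (−0.58, SE 0.082, adjusted p = 0.0329), and Sod2 at 53.6 and 50.4 FPKM against 39.4 and 37.8 FPKM (−0.42, SE 0.066, adjusted p = 0.0471). The groups did not overlap for these 3, nor for 49.1% of all tested genes. Since the 3 were taken because they passed, this adds nothing to the test. Prdx5 was named after its values were seen. With no filter none of the 3 passed (adjusted p of 0.0768 for Oplah, 0.126 for Prdx5 and 0.118 for Sod2). The Sod2 call was lost in 9 of 11 alternatives, which were no filter, each of the 4 libraries left out (adjusted p between 0.0733 and 0.173), quantile normalization (0.0701), small RNA genes left out (0.130), the replicate block (0.0948) and all 12 libraries in 1 fit (0.0883). Prdx5 was also lost after quantile normalization (0.0776) and without control replicate 2 (0.0721) or overexpression replicate 1 (0.148) or 2 (0.0692), and Oplah was lost without overexpression replicate 1 (0.0605). Keap1, Bach1 and Sqstm1 did not pass (−0.031, −0.013 and 0.12).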

How the data were processed

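RNA was extracted with TRIZOL, depleted of ribosomal RNA and made into directional libraries, per the labels' protocols. The values are FPKM per gene, computed by the authors and deposited as 1 file per library (24888 entries), and the builds are mm10 and GRCm38, per the submitters' processing notes. For the aligner, the quantification tool, the annotation and any use of strand in counting, the entry is "not given in the sources used here". Starts in the files were 1 lower than RefSeq for 61.8% of 23030 genes of the same name, so 1 was added.

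FPKM were tested as log2(FPKM + 1), with a pseudocount of 1, in limma 3.58.1 (R 4.3.3; lmFit, then eBayes with trend), two-sided. Genes at 1 FPKM or more in at least 2 libraries of a fit were kept, and p-values were adjusted by Benjamini-Hochberg over all genes tested, with a threshold of 0.05. The 8 primary libraries shared 1 fit and the 4 C3H10t1/2 libraries another, and the comparison of sources used all 12. The procedure was also run on simulated data with independent noise for each gene. That simulation held no shift common to a library, so it does not show how the fit handles such shifts. FPKM keep no read count, so no counting error or detection limit is given.

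The genes named are the 10 members, Keap1, Bach1, Slc7a11 and Txn1, the 3 genes of each pathway list with the lowest p between WT beige and WT white, and the 5 genes most like Nfe2l2. Not every gene this rule gives is described. Atf7, Txnip, Slc40a1, Gpx3, Gsta3, Sod2, Oplah, Tkt and Prdx5 are also given where they were called by genotype or overexpression. Members and lists were chosen with earlier results of these data known. Alternatives were a pseudocount of 0.1, no filter, quantile normalization, median centring, leaving out small RNA genes, a replicate block, other sets of libraries in the fit, and leaving out each library. Python 3.11.15 with pandas 2.3.3 and matplotlib 3.10.9 were used for the rest.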

Additional observations from a re-analysis of the deposited data

Results flagged for a closer look

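For 2 of the tested genes of the pathway lists, the difference between beige and white was not the same in the 2 genotypes, by the test of the interaction itself (limma). Over all tested genes, 0.292% were called for the interaction, 0.106% higher and 0.186% lower. For Txnip the interaction was −1.35 on the log2 scale (adjusted p = 0.00391). Txnip was higher in beige in WT cultures (1.09, adjusted p = 2.46e-05) and lower in beige in KO-labelled cultures (−0.26, adjusted p = 0.0405). The call in KO-labelled cultures was lost in 9 of 16 alternatives: after median centring (−0.15, adjusted p = 0.135), with the replicate block (0.0507), with only the 2 groups in the fit (0.0795) and without 6 of the 8 libraries in turn (0.0611 to 0.199). The WT call held in all 16. The WT white libraries, at 39.5 and 41.2 FPKM, were the low ones, and the other 6 primary libraries lay between 83.2 and 115 FPKM. The interaction did not pass without WT beige replicate 1 (−1.29, adjusted p = 0.0583).

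For Slc40a1 the interaction was −1.10 (adjusted p = 0.0388). KO-labelled white libraries held 15.3 and 14.2 FPKM, WT white 7.53 and 7.50 FPKM, and the 4 beige libraries 0.945 to 1.57 FPKM. The call was lost with a pseudocount of 0.1 (adjusted p = 0.102), with no filter (adjusted p = 0.116) and without 7 of the 8 libraries in turn (adjusted p between 0.0622 and 0.176). It held without WT beige replicate 2 (adjusted p = 0.0306). Macrophage markers were higher in the same white libraries, and their part in the Slc40a1 values was not tested.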

How the results depend on the processing

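Over the alternatives tried, the 10 genes kept their direction and their side of the threshold in 148 of 160 values for WT beige against white, 142 of 160 for KO-labelled beige against white, 154 of 159 and 153 of 160 for genotype in beige and white, 144 of 150 for the interaction, 102 of 110 for overexpression and 189 of 190 for source. For the values that changed below, the cause was not tested. Leaving out 1 library gave 4 to 7 called genes in WT and 5 to 8 in KO-labelled beige against white, the 5 without KO-labelled white replicate 1. Quantile normalization called 1 gene by genotype in white, and leaving out small RNA genes called 1 gene under overexpression.

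Signs turned after quantile normalization for Txn1 (−0.12) in WT beige against white, for Nqo1 (0.087) and Prdx1 (−0.10) in KO-labelled beige against white, for Nqo1 by genotype in white (−0.073), for Gsta4 under overexpression (0.033), and for Keap1 (−0.038) and Txnip (−0.011) between sources. Median centring turned Prdx1 in WT beige against white (0.058), Nqo1 by genotype in white (−0.0096) and Keap1 between sources (−0.024). Leaving out small RNA genes turned Txnrd1 in WT beige against white (−0.085), Gclc by genotype in beige (0.0033), and Gsta4 (0.031), Nfe2l2 (0.00040) and Srxn1 (0.0090) under overexpression.

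Leaving out 1 library gave −0.058 to 0.077 for Txnrd1 and −0.035 to 0.80 for Gsta4 in WT beige against white. By genotype in beige it gave −0.023 to 0.018 for Gclc and −0.14 to 0.076 for Srxn1, and in white −0.011 to 0.053 for Nqo1, −0.0094 to 0.089 for Srxn1 and −0.28 to 0.56 for Gsta4. For the interaction it gave −0.094 to 0.021 for Nfe2l2, −0.60 to 0.19 for Hmox1, −0.18 to 0.036 for Srxn1 and −0.11 to 0.73 for Gsta4. Under overexpression it gave −0.18 to 0.014 for Gclc and −0.13 to 0.056 for Gsta4. Between sources it gave −0.026 to 0.19 for Srxn1, −0.034 to 0.047 for Keap1, −0.078 to 0.19 for Abcc4 and −0.0024 to 0.12 for Txnip.

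Same-numbered libraries did not deviate together (r between −0.087 and 0.12 among primary groups, 0.055 in C3H10t1/2), so the numbers were not taken as pairs. With a replicate block, 6 genes were called in WT and 8 in KO-labelled beige against white, none by genotype, interaction or overexpression, and 8 between sources, as without it, while calls over all genes by genotype in beige went from 17 to 27 and under overexpression from 149 to 88. Over all genes, other settings gave 5 to 27 calls by genotype in beige, 23 to 642 in white, 16 to 116 for the interaction and 17 to 177 under overexpression.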

Other observations

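Txnrd2, the mitochondrial partner of Txnrd1, was listed at 8.10 and 6.44 FPKM in WT beige and at 6.88 and 8.42 FPKM in KO-labelled beige, and at 0 in the 4 white and the 4 C3H10t1/2 libraries. No fold is given against values listed at exactly 0, since these files do not tell a failed estimate from no signal. Txnrd2 is still among the pathway genes counted as higher in beige in both genotypes, and those counts carry the same limit.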
